A study of Homo sapiens with 8 samples.

Results

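A group of 61 genes was chosen because its members, expressed in PC3 cells, had a lower level relative to the sample's total counts in all 4 IER5L-silenced samples than in any control sample, by at least a set fold. PC3 is an established human prostate cancer cell line derived from a bone metastasis. The cells were transduced with a lentivirus carrying either a scrambled short hairpin (shScramble) or the sh2 hairpin against IER5L (shIER5L), selected with puromycin, and sequenced as 4 plates of each, 8 samples in all. A single IER5L hairpin was sequenced, so that effects of IER5L loss and of this hairpin sequence cannot be told apart in these counts. The sample titles call the samples biological replicates. Whether the plates came from separate transductions is not given in the sources used here. The errors and p-values therefore measure only the spread between these samples, which may be technical. The study and the sample records differ on whether libraries were made by ribosomal RNA depletion or from poly(A) RNA, which bears on the small nuclear and nucleolar RNAs below.

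The genes were chosen by their counts in this same comparison. Counts were divided by the sample's total and multiplied by 1000000 (CPM). A gene was kept with a mean of at least 2 CPM over the 8 samples, a log2 ratio of mean CPM (shIER5L over shScramble) of at most -0.5, and its highest shIER5L value below its lowest shScramble value. Of 12399 genes with a mean of at least 2 CPM, 69 met these thresholds (0.556%), and 8 of them were set aside by name, IER5L among them, which left 61 of 58051 genes in the table. Separation of the 4 shIER5L samples below the 4 shScramble samples, without the fold threshold, held for 6.63% of genes with a mean of at least 2 CPM. Because this contrast selected the genes, the differences given for them below are descriptions and carry no test. The number of genes meeting the rule rose to between 64 and 97 with 1 sample left out, since fewer samples make separation easier to meet. It was highest, at 97, without shIER5L replicate 2. Depending on the sample left out, 52 to 58 of the 61 were kept.

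Total counts ran from 21512128 to 24662190 per sample, and the count of a selected gene in a sample from 30 to 19094. IER5L, the targeted gene, was at 3.86, 6.65, 5.68 and 3.22 CPM in the shScramble and at 2.699, 3.04, 2.01 and 1.31 CPM in the shIER5L samples, in the order of replicates 1 to 4, which is used for all values per sample. The epithelial keratin KRT18 (mean 400.0 CPM in shScramble), the prostate homeobox gene HOXB13 (390.0 CPM) and VIM (541 CPM) were well covered, while the prostate antigens KLK2 and KLK3 had 0 counts in every sample. None of the 10 prostate and PC3 identity genes tested passed the test in either direction. Of 18 markers of leukocytes, fibroblasts, endothelium and neural cells, 9 had enough counts to test and none passed. PTPRC, CD3E, CD68, CDH5 and VWF had at most 4 counts in any sample, and the highest of the markers were MBP (28.8 CPM in shScramble) and KDR (22.7 CPM).

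A short hairpin RNA is cut into a duplex whose guide strand loads Argonaute. The guide directs cleavage of a fully matched transcript, here IER5L, and a guide can also pair through its seed, the bases near its 5′ end, with sites in the 3′ untranslated regions (3′ UTRs) of other transcripts, as a microRNA does. The sequences below show the hairpin and the stretches of the selected transcripts that repeat part of it. Both hairpins are written in the sense direction of IER5L. The capitals in the last line mark bases 11 to 18 of sh2, the span of the overlapping heptamers counted below.
sh1: TCGAGCCATTGTCGCCTTCTA
sh2: GACGCGTCCAACATCTCAAAC
sh2, bases 11 to 18 in capitals: gacgcgtccaACATCTCAaac

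The sh2 sequence matched the coding sequence of IER5L at chr9:129176988-129177008 on the minus strand of hg38. Either of 2 overlapping heptamers of sh2, ACATCTC (bases 11 to 17) or CATCTCA (bases 12 to 18), stood in the longest annotated 3′ UTR of 28 of the 44 protein-coding genes of the group, or 63.6%. Among 11040 other protein-coding genes with a mean of at least 2 CPM the share was 24.4%. The search was made on the transcript strand only, and an earlier scan of these same data led to the choice of these heptamers, so the shares are a description. The median 3′ UTR was 1656 bases long in the group and 1610 in the others. Site-carrying genes were also more frequent in the group within each class of length: 8 of 16 against 6.72% for 3′ UTRs of 30 to 1000 bases, 4 of 11 against 18.4% for 1000 to 2000 bases, 9 of 10 against 31.8% for 2000 to 4000 bases, and 7 of 7 against 58.9% beyond that.

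Among the 12 site-carrying genes with the most shScramble counts, 11 are shown in that order, each as the longest run identical to sh2 that covers a heptamer (capitals) with 8 bases on either side.
MBOAT2: cactatatAACATCTCAAAgttattca
SLC35F5: tgccttacACATCTCAAggaattca
HSDL2: tgagccttACATCTCAttcactgt
JOSD1: cttccccaAACATCTCAtcaagttt
ZFP91: aacagcacACATCTCtcatcccc
TSPAN13: ctgaacgtACATCTCActggtata
TUFT1: ttttgcttACATCTCAtgattgat
RNF11: tacaaaacACATCTCAgtctctgt
PCOLCE2: ttatttatACATCTCtgtaaaag
RNF144A: tttaaaggAACATCTCAtctccatt
THBS1: aaacctacCATCTCAgtgagcac

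These stretches lie in 3′ UTR exons of hg38. On the minus strand they are MBOAT2 at chr2:8854870-8854896, SLC35F5 at chr2:113714940-113714964, JOSD1 at chr22:38687792-38687816 and PCOLCE2 at chr3:142818032-142818054. On the plus strand they are HSDL2 at chr9:112470790-112470813, ZFP91 at chr11:58618245-58618267, TSPAN13 at chr7:16783821-16783844, TUFT1 at chr1:151582553-151582576, RNF11 at chr1:51272367-51272390, RNF144A at chr2:7040492-7040516 and THBS1 at chr15:39596189-39596211. The run in MBOAT2, 11 bases long, was the longest among the 3′ UTRs of the group, and ZFP91 had 3 separate sites. Runs of at least 9 bases of sh2 stood in the 3′ UTRs of 12 of the 44 genes (27.3%) and of 8.99% of the others. Runs of at least 9 bases of sh1 stood in none of the 44 and in 3.97% of the others. At so low a share few of 44 genes would hold such a run, so nothing is read from its absence.

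A further 2 sites are given for genes chosen after their values were seen. CENPM had the lowest log2 ratio of the group, and ENSG00000279673, an unconfirmed transcript on chromosome 3, held a run of 13 bases of sh2 (bases 7 to 19), longer than any in the 3′ UTRs of the group. The CENPM site lies in the 3′ UTR at chr22:41938784-41938806 on the minus strand, and the other in the single exon of ENSG00000279673 at chr3:171461821-171461849 on the plus strand.
CENPM: ggcgtgttACATCTCcatttaag
ENSG00000279673: aaaattgtTCCAACATCTCAAtggccaca

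Among the 15 heptamers of sh2 and the 15 of sh1, the shares in the group and in the others differed most at bases 11 to 17 and 12 to 18 of sh2. An earlier scan of these same data led to the choice of these 2 heptamers, so this restates that choice. The heptamer at bases 12 to 18 of sh2 stood in 24 of the 44 genes (54.5% against 19.1% of the others) and that at bases 11 to 17 in 17 (38.6% against 11.7%). At bases 14 to 20, which face bases 2 to 8 of a guide that begins opposite the last base of sh2, the share was 31.8% against 29.3%. The octamer of bases 11 to 18 stood in 11 of the 44 genes (25.0%) and in 4.10% of the others. The sh1 heptamers at the same positions were found in 1 gene of the group (2.27% against 4.06%). They are too rare in the others for 44 genes to show a difference. In the longest coding sequence the sh2 heptamers stood in 12 of the 44 genes (27.3% against 21.5%).

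**Figure D1:**
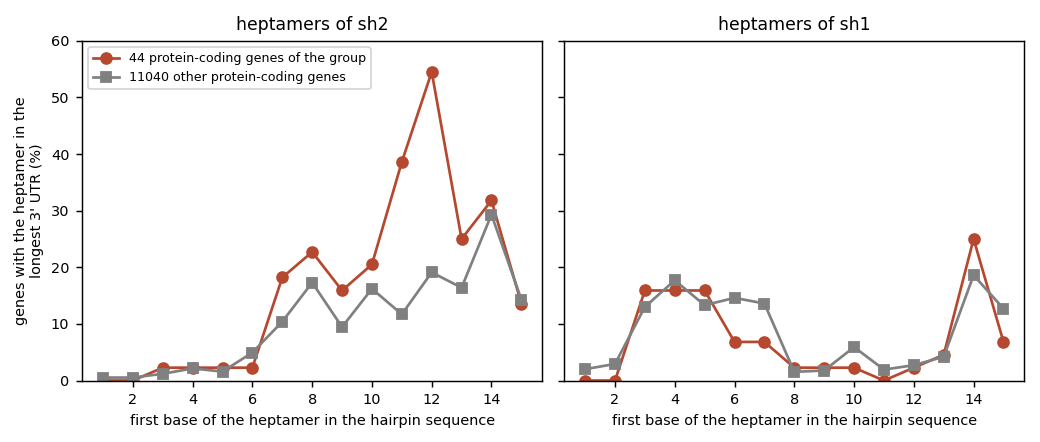
Percentage of genes (y axis) whose longest 3′ UTR holds each heptamer, by the first base of the heptamer in the sh2 (left) and sh1 (right) sequences (x axis). Circles are the 44 protein-coding genes of the group and squares the 11040 other protein-coding genes with a mean of at least 2 CPM. The sh2 heptamers that begin at bases 11 and 12, chosen from these same data, reach 38.6% and 54.5% in the group against 11.7% and 19.1% in the others.

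The site-carrying genes were not the whole group. Neither heptamer was found in the longest 3′ UTR of 16 protein-coding genes, among them REG4, PLAT, INHBB, KRT81, S100A2, IGFBP3, DNAH5, APOBEC3B, GLB1L2, RDM1, NOG, ZFTA, GET3 and TFF2. The coding sequence of GET3 held a 10-base run of sh2, the longest among the coding sequences of the group. How often coding sequences of other genes hold such a run was not counted. The median edgeR log2 fold change was -0.63 in the 28 genes with a site and -0.58 in the 16 without. Outside the group, with the genes set aside by name included, 4.20% of 2690 genes with either heptamer passed the edgeR test as lower in shIER5L, against 0.802% of 8350 genes with neither. Genes that passed as higher made up 3.42% and 3.70% of the same sets. With the octamer, 8.83% of 453 genes outside the group passed as lower, and the median log2 fold change of those 453 genes was -0.02. Genes with longer 3′ UTRs held a heptamer more often, and these shares outside the group were not split by length. The heptamers were also chosen from these same data, so the shares are a description. Among the 17 genes of the group that are not protein-coding, 7 held a heptamer in the longest annotated transcript, and for the 10 lncRNAs the share was 40.0% against 34.5% of 766 other lncRNAs. The part of the hairpin's sequence in the lower levels was not tested.

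All 61 genes had enough counts for the edgeR quasi-likelihood test, and 48 of them had an adjusted p under 0.05. Of 16959 genes tested, 1.46% passed as lower and 2.46% as higher. The count for the group follows from how it was chosen. The 13 that did not pass were NEURL1, LINC01311, ARPIN, ALOX12-AS1, LINC01089, SH3GL2, ENSG00000205740, MIR621, RDM1, ZNF8-DT, SNORD3B-1, LINC02405 and ENSG00000272369, all with a mean under 7 CPM in shScramble. The median edgeR log2 fold change of the 61 was -0.59, beside 0.00 over all genes tested. Only CENPM had a log2 ratio of mean CPM of -1 or lower, 11 genes lay between -0.75 and -1, and 29 lay above -0.6. The selected genes were less abundant than the expressed genes as a whole, with a median of 14.7 CPM against 30.7, and 21 of them had a mean under 5 CPM.

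**Figure D2:**
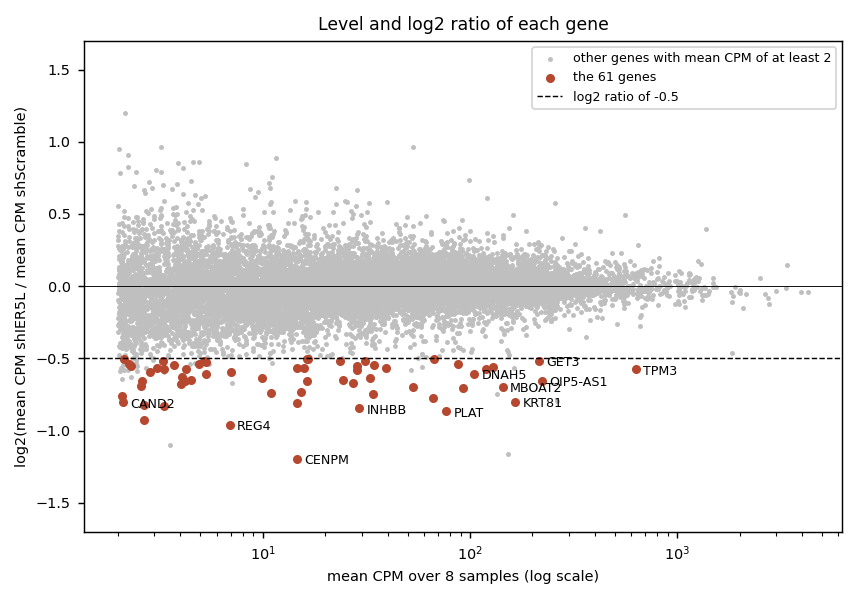
Log2 ratio of mean CPM, shIER5L over shScramble (y axis), against mean CPM over 8 samples on a log scale (x axis), for each gene with a mean of at least 2 CPM. Red points are the 61 genes, grey points the other genes, including those set aside by name, and the dashed line marks -0.5. TPM3 has the highest CPM of the group and CENPM the lowest log2 ratio, and 1 grey point lies beyond the y axis.

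In the selected genes as a set, the shScramble samples lay close together. The median log2 difference from the shScramble mean over the 61 genes was -0.04, 0.02, 0.04 and -0.03 in the shScramble samples and -0.63, -0.59, -0.64 and -0.65 in shIER5L samples. shScramble replicate 1 was the lowest control for 26 genes and shScramble replicate 3 the highest for 26, while no shIER5L sample was the lowest of its group for more than 18. The lowest shScramble value exceeded the highest shIER5L value by a median factor of 1.22. This factor was under 1.1 for 13 genes and at least 1.3 for 24.

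**Figure D3:**
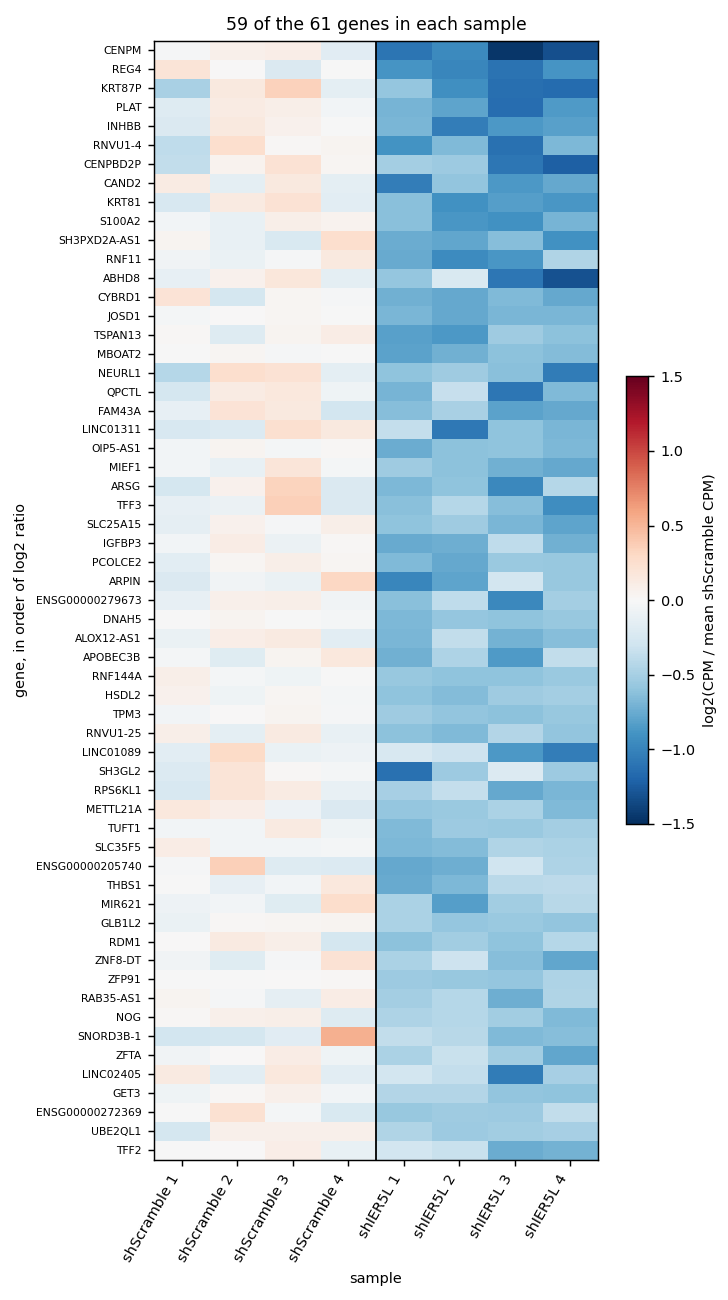
Log2 of CPM over the mean shScramble CPM (colour, blue below and red above the mean) for 59 of the 61 genes (rows, lowest log2 ratio at the top) in the 8 samples (columns, shScramble left of the line and shIER5L right of it). The 4 shIER5L columns are blue for every gene shown, by the choice of the genes, and ABHD8 and SH3GL2 have the widest range between shIER5L samples.

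CENPM (ENSG00000100162, chr22:41938721-41947164), a subunit of the constitutive network of proteins on centromeric chromatin, was the most reduced gene of the group. It was at 20.04, 21.3, 21.7 and 18.1 CPM in shScramble samples and at 9.49, 10.4, 7.399 and 8.13 CPM in shIER5L samples. Replicates 3 and 4 were the lowest shIER5L samples, and the edgeR log2 fold change was -1.18 (SE 0.108). The other 20 genes tested from the centromere list, which holds CENP-A and the rest of the network, all stayed short of the test, with a median log2 fold change of -0.02. No E2F family or pocket protein gene belonged to the group, and among the 17 tested only RBL1, which encodes the pocket protein p107, was lower (95.5 ± 1.65 CPM against 73.0 ± 4.79, mean ± SD, n = 4, log2 fold change -0.37, SE 0.0557, edgeR adjusted p = 0.00107).

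Secreted epithelial products formed a second set. REG4 (ENSG00000134193, chr1:119794018-119811660), a secreted lectin of mucosal and neuroendocrine epithelium, was at 10.5, 9.2, 7.87 and 9.17 CPM in the shScramble samples and at 4.96, 4.65, 4.28 and 4.97 CPM in the shIER5L samples, a log2 fold change of -0.94 (SE 0.123). The trefoil factors are small secreted peptides that protect mucosal surfaces, and their genes lie side by side on chromosome 21. TFF2 was at 19.01, 19.2, 20.6 and 17.7 CPM in shScramble samples and 15.8, 15.1, 11.4 and 11.7 CPM in shIER5L samples (log2 fold change -0.49). TFF3, 30.7 kb away, was at 5.07, 5.18, 7.096 and 4.74 and 3.57, 4.1, 3.54 and 2.89 CPM in the same order (log2 fold change -0.63). In both genes shIER5L replicate 4 was among the lower samples of its group. With 1 sample left out, TFF3 did not pass the edgeR test in 6 of 8 fits and TFF2 in 3 of 8. TFF1, which is not in the group, was also lower, at 35.4 ± 2.09 against 27.8 ± 3.95 CPM (SD, n = 4, log2 fold change -0.33, SE 0.0888, edgeR adjusted p = 0.0455). The remaining 7 of the 8 other secretory epithelium genes tested did not pass.

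Several genes of the group encode secreted regulators of the transforming growth factor β (TGF-β) superfamily, whose ligands act through type I and type II receptor kinases and SMAD proteins. INHBB (ENSG00000163083, chr2:120346143-120351808), the β subunit of activin B, was at 32.3, 41.6, 39.2 and 37.4 CPM in shScramble samples and 23.3, 18.3, 20.6 and 21.5 CPM in shIER5L samples. Its log2 fold change was -0.83 (SE 0.0885), with shScramble replicate 1 the lowest control. NOG, which encodes the secreted bone morphogenetic protein (BMP) antagonist noggin, was at 37.1, 38.7, 39.05 and 32.03 CPM in the shScramble samples and 26.6, 27.3, 25.6 and 23.1 CPM in the shIER5L samples (log2 fold change -0.50). THBS1 encodes thrombospondin-1, a matrix glycoprotein that can activate latent TGF-β. Its values were 33.5, 31.1, 32.9 and 37.6 CPM in shScramble and 19.98, 21.1, 25.5 and 25.7 CPM in shIER5L cells (log2 fold change -0.53), with exons of antisense genes over 7.56% of its exon bases.

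Other genes of the same families moved both ways. Of 19 further ligands and binders tested, FSTL3, a secreted binder of activin, was lower (24.4 ± 2.98 against 17.6 ± 1.87 CPM, SD, n = 4, log2 fold change -0.46, edgeR adjusted p = 0.0139), while 2 were higher. These were INHBA, the β subunit of activin A (46.9 ± 4.07 against 59.8 ± 6.17 CPM, log2 fold change 0.37, edgeR adjusted p = 0.0148), and FST, the activin binder follistatin (721 ± 10.1 against 812 ± 26.1 CPM, log2 fold change 0.19, edgeR adjusted p = 0.0105). Among 21 receptors and SMADs only ACVR1, a type I receptor, passed, with a log2 fold change of 0.46 (SE 0.077, edgeR adjusted p = 0.00289). The median log2 fold change was 0.01 over the 22 ligands and binders and 0.05 over the receptors and SMADs.

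Growth factor binding and matrix remodelling genes were also present. IGFBP3, the main carrier of insulin-like growth factors in serum, was at 11.7, 12.96, 11.3 and 12.2 CPM in shScramble samples and 7.14, 7.23, 9.25 and 7.32 CPM in shIER5L samples, the third of which stood above the others (log2 fold change -0.62, SE 0.109). Of 13 other genes of that axis tested, IGFBP6 was lower (103 ± 7.48 against 76.3 ± 9.34 CPM, SD, n = 4, log2 fold change -0.41, edgeR adjusted p = 0.00457). PAPPA2, a protease that cleaves binding proteins, and STC1, an inhibitor of such proteases, were higher, with log2 fold changes of 0.86 (SE 0.152) and 0.73 (SE 0.143). PCOLCE2, an enhancer of procollagen C-propeptide removal, was at 35.8, 41.03, 42.6 and 40.9 CPM in shScramble and 25.4, 23.6, 27.2 and 27.1 CPM in shIER5L samples (log2 fold change -0.62), and none of 14 other thrombospondin or procollagen processing genes passed.

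PLAT (ENSG00000104368), the tissue-type plasminogen activator, which converts plasminogen to the protease plasmin, was at 86.4, 108, 105 and 96.5 CPM in shScramble samples. In shIER5L samples it was at 60.9, 57.02, 44.7 and 54.8 CPM, with replicate 3 lowest, and the log2 fold change was -0.85 (SE 0.0829). Of the 8 other genes tested from the plasminogen system, S100A10, a plasminogen-binding S100 protein, passed with a smaller difference (178 ± 3.71 against 156 ± 5.57 CPM, SD, n = 4, log2 fold change -0.17, edgeR adjusted p = 0.0426).

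**Figure D4:**
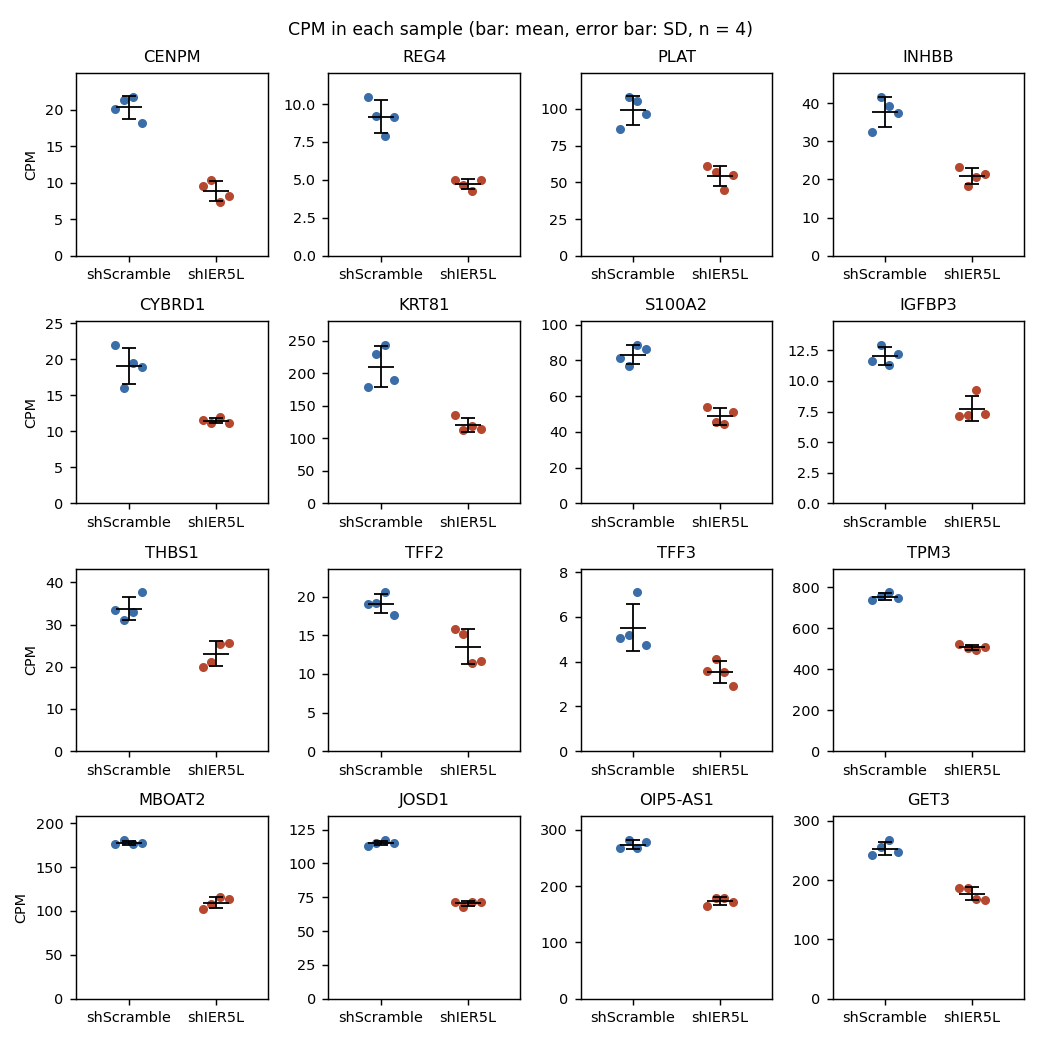
CPM (y axis, from 0) of 16 genes of the group in each sample, with shScramble in blue and shIER5L in red, replicates in order from left to right, and bars for the mean and SD (n = 4). TPM3, MBOAT2, JOSD1 and OIP5-AS1 show narrow spread next to the difference between groups, while KRT81, TFF3 and IGFBP3 show wider spread.

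KRT81 (ENSG00000205426, chr12:52285913-52291534), a type II hair keratin, was among the most abundant transcripts of the group. It was at 178, 230.3, 244 and 189 CPM in shScramble samples and 137, 112, 119 and 115 CPM in shIER5L samples (log2 fold change -0.78, SE 0.0848), and shScramble replicates 1 and 4 were below the other controls. The pseudogene KRT87P, 27.0 kb away, was at 2.51, 3.89, 4.46 and 3.18 CPM and 2.35, 1.86, 1.603 and 1.58 CPM in the same order (log2 fold change -0.91). Primary alignments were counted, and the hair keratin genes and pseudogenes resemble one another, so how reads were split between these 2 loci is uncertain. KRT7, a keratin of simple epithelia outside the group, was at 2.22 ± 0.378 and 1.18 ± 0.205 CPM (SD, n = 4, log2 fold change -0.90, SE 0.215, edgeR adjusted p = 0.0264). Its exons overlap those of KRT87P on the opposite strand over 32 bases, and reads were counted without regard to strand. KRT86, whose span contains KRT87P, had a log2 fold change of -0.80 (SE 0.344) and did not pass, nor did the other 8 keratins tested outside the group.

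S100A2 (ENSG00000196754), a calcium-binding protein of epithelial cells, was at 81.2, 77.01, 88.8 and 86.2 CPM in the shScramble and 54.02, 45.3, 44.3 and 51.4 CPM in the shIER5L samples (log2 fold change -0.76, SE 0.0725). Other S100 genes differed in direction. S100P was higher, at 26.2 ± 1.17 against 35.2 ± 3.28 CPM (SD, n = 4, log2 fold change 0.44, edgeR adjusted p = 0.00257), as was S100A1 (1.61 ± 0.388 against 2.85 ± 0.0625 CPM, log2 fold change 0.84, edgeR adjusted p = 0.0214), and 8 of the 11 others tested did not pass.

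TPM3 (ENSG00000143549, chr1:154155304-154194648), a tropomyosin that coats actin filaments, had the highest CPM of the group. It was at 735, 757, 774 and 747 CPM in shScramble samples and 521, 501, 492 and 509 CPM in shIER5L samples, and no sample lay more than a few percent from its group mean (log2 fold change -0.56, SE 0.0371). ARPIN, an inhibitor of the actin-nucleating Arp2/3 complex, was far less abundant, at 4.28, 4.79, 4.66 and 6.17 CPM in shScramble and 2.52, 2.87, 4.11 and 3.34 CPM in shIER5L samples. The third shIER5L value was just under the lowest control, and ARPIN did not pass the test. Of 19 other tropomyosin, Arp2/3 and regulator genes tested, none was lower and 2 were higher, the Arp2/3 subunit ARPC3 (log2 fold change 0.22, SE 0.0449, edgeR adjusted p = 0.0109) and the Arp2/3 activator WASL (0.44, SE 0.108, edgeR adjusted p = 0.0288).

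The list of ubiquitin ligases and cullin regulators, drawn up with earlier results of these data known, held 6 genes of the group. Each of them held a heptamer in its 3′ UTR, as did 63.6% of all protein-coding genes of the group. The share among the other genes of the list was not counted. JOSD1, a deubiquitinase of the Josephin family, was at 113, 115, 117 and 115 CPM in shScramble samples and 71.5, 67.7, 71.8 and 71.4 CPM in shIER5L samples (log2 fold change -0.69, SE 0.047). ZFP91, a zinc finger ubiquitin ligase, was at 103, 103, 104 and 105 CPM in shScramble and 70.95, 70.2, 69.6 and 75.04 CPM in shIER5L samples (log2 fold change -0.52, SE 0.0479). The spread within groups was small in both genes, although exons of other genes, on either strand, overlap 32.3% of the ZFP91 exon bases. RNF11, a RING protein that binds SMURF ligases, was at 41.1, 39.8, 42.05 and 46.9 CPM in the controls and 25.1, 22.1, 23.3 and 31.04 CPM in the silenced samples, of which the fourth was the highest (log2 fold change -0.73). RNF144A, a RING-between-RING ligase, was at 36.3, 33.4, 32.7 and 33.9 CPM and 22.9, 22.4, 22.5 and 23.2 CPM in the same order (log2 fold change -0.57).

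CAND2, which regulates cullin-RING ligases, lay near the lower limit of abundance, at 2.93, 2.42, 2.96 and 2.42 CPM in shScramble and 1.31, 1.77, 1.48 and 1.58 CPM in shIER5L samples (log2 fold change -0.79). NEURL1, a ligase of the Notch pathway, was at 2.37, 3.801, 3.69 and 2.86 CPM and 2.09, 2.198, 2.06 and 1.54 CPM (log2 fold change -0.67) and did not pass. Of the 12 ubiquitin ligases and cullin regulators tested outside the group, none was lower and 3 were higher, all of them ligases of the NEDD4 family. They were SMURF1 (76.5 ± 2.89 against 88.6 ± 3.89 CPM, SD, n = 4, log2 fold change 0.23), NEDD4 (log2 fold change 0.31, SE 0.0655) and WWP1 (0.24, SE 0.0634), with edgeR adjusted p-values of 0.0154, 0.013 and 0.0428. SMURF2, ITCH, NEDD4L and WWP2, of the same family and in the same list, did not pass. UBE2QL1, an E2-like gene with a site, had a log2 fold change of -0.49.

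Membrane and organelle functions included GET3 (ENSG00000198356), the ATPase that delivers tail-anchored proteins to the endoplasmic reticulum. It was at 242, 257, 268 and 247 CPM in shScramble samples and 187, 188, 168 and 166 CPM in shIER5L samples (log2 fold change -0.50, SE 0.0487). Per length, it was the most abundant transcript of the group in controls, at 153 RPKM (CPM divided by exon length in kilobases), followed by KRT81 at 109 RPKM and TPM3 at 89.8 RPKM. None of 7 other insertion factors tested was lower, and EMC3, a subunit of the membrane complex that inserts proteins, was higher (175 against 203 CPM, log2 fold change 0.23, SE 0.0428, edgeR adjusted p = 0.00528). MBOAT2 (chr2:8852690-9003813), a lysophospholipid acyltransferase, was at 177, 181, 176 and 178 CPM in the controls and 102, 108, 116 and 113 CPM in the silenced samples (log2 fold change -0.68, SE 0.0476). SLC35F5, a member of the nucleotide sugar transporter family, was at 166, 150.0, 150.2 and 151 CPM in shScramble and 96.5, 98.7, 113 and 111 CPM in shIER5L samples, with shScramble replicate 1 above the rest (log2 fold change -0.54).

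Among mitochondrial and redox genes, MIEF1, an outer membrane receptor for the fission protein DRP1, was at 19.4, 18.5, 22.6 and 19.6 CPM in shScramble and 13.8, 13.1, 12.1 and 11.8 CPM in shIER5L samples (log2 fold change -0.64). SLC25A15, the mitochondrial ornithine carrier of the urea cycle, was at 26.9, 30.97, 29.2 and 31.6 CPM and 19.5, 20.6, 18.5 and 17.1 CPM in the same order (log2 fold change -0.63). None of 13 other fission and fusion genes and none of 12 other amino acid carrier and urea cycle genes passed. CYBRD1, a ferric reductase of the cytochrome b561 family, was at 22.03, 15.98, 19.5 and 18.9 CPM in shScramble and 11.6, 11.2, 12.04 and 11.2 CPM in shIER5L samples (log2 fold change -0.72), and the shIER5L samples were closer together than the controls. None of 7 other oxidase and reductase genes tested passed.

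HSDL2, a peroxisomal dehydrogenase-like protein, was at 149.5, 137, 147 and 141 CPM in shScramble and 94.2, 91.3, 99.1 and 101 CPM in shIER5L samples (log2 fold change -0.56, SE 0.0526). DNAH5, a dynein heavy chain of motile cilia, was at 126, 129.8, 126 and 124 CPM in the controls and 79.2, 84.5, 83.3 and 84.9 CPM in the silenced samples (log2 fold change -0.59, SE 0.0449). Both were among the 10 most abundant genes of the group, and only HSDL2 held a heptamer in its 3′ UTR. APOBEC3B, a cytidine deaminase that edits single-stranded DNA, was at 8.27, 7.47, 8.72 and 9.44 CPM in shScramble and 5.14, 6.13, 4.69 and 6.55 CPM in shIER5L samples (log2 fold change -0.58, SE 0.13), with exons of other genes, on either strand, over 23.3% of its exon bases. None of the 5 other deaminases tested passed.

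The remaining protein-coding genes are given by their edgeR log2 fold change alone. Enzymes among them were the hydrolase ABHD8 (-0.72), the Golgi glutaminyl cyclase QPCTL (-0.66), the lysosomal sulfatase ARSG (-0.64), the kinase-like RPS6KL1 (-0.55), the lysine methyltransferase METTL21A (-0.55) and the β-galactosidase-like GLB1L2 (-0.53). Membrane and scaffold proteins were the tetraspanin TSPAN13 (-0.68), the endophilin SH3GL2 (-0.55), which did not pass, and the tuftelin gene TUFT1 (-0.55). Nuclear proteins were the RAD52 motif protein RDM1 (-0.53), which did not pass, and the zinc finger protein ZFTA (-0.50), and FAM43A (-0.65) was placed in no set.

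Genes that are not protein-coding made up 17 of the 61, and lncRNAs alone 16.4% of the group against 6.28% of the genes with a mean of at least 2 CPM. Of these lncRNAs, only OIP5-AS1, SH3PXD2A-AS1 and RAB35-AS1 passed the edgeR test. With 1 sample left out, SH3PXD2A-AS1 did not pass in 8 of 8 fits and RAB35-AS1 in 6 of 8. OIP5-AS1 (ENSG00000247556, chr15:41283990-41309737), an abundant lncRNA, was at 267, 282, 268 and 278 CPM in shScramble samples and 164, 179, 179 and 172 CPM in shIER5L samples (log2 fold change -0.64, SE 0.0421), and it was the second most abundant gene of the group by CPM. Its longest transcript held both heptamers. OIP5, on the opposite strand with exons over 3.71% of the exon bases of OIP5-AS1, had a log2 fold change of -0.04 (SE 0.083) and did not pass. CENPBD2P, a transcribed pseudogene, was at 14.5, 19.3, 21.7 and 19.1 CPM in the controls and 13.1, 12.8, 8.76 and 7.95 CPM in the silenced samples, of which replicates 3 and 4 were lowest (log2 fold change -0.79). Exons of other genes, on either strand, overlap 24.3% of the CENPBD2P exon bases.

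The other lncRNAs had log2 fold changes of -0.74 (SH3PXD2A-AS1), -0.64 (LINC01311), -0.58 (ALOX12-AS1), -0.55 (LINC01089), -0.53 (ENSG00000205740), -0.52 (ZNF8-DT), -0.51 (RAB35-AS1), -0.50 (LINC02405) and -0.49 (ENSG00000272369), and ENSG00000279673 had -0.59. For those named after a neighbour on the opposite strand, the neighbours did not pass the test. SH3PXD2A had a log2 fold change of 0.08 (SE 0.202), RAB35 of 0.09 (SE 0.0635), ALOX12 of -0.18 (SE 0.316) and ZNF8 of -0.04 (SE 0.0965). Exons of other genes cover 51.3% of the exon bases of LINC01089 and 28.5% of those of RAB35-AS1, so counts of these genes are uncertain to that extent.

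Small RNA genes completed the group. RNVU1-4, a variant of the U1 spliceosomal RNA, was at 2.603, 4.06, 3.45 and 3.49 CPM in shScramble and 1.83, 2.16, 1.56 and 2.12 CPM in shIER5L samples (log2 fold change -0.81), and RNVU1-25 had a log2 fold change of -0.56. SNORD3B-1, a copy of the U3 nucleolar RNA, had -0.50 and did not pass, while its neighbouring copy SNORD3B-2 had -0.04 (SE 0.197). Copies of U1 and U3 are nearly identical, so how reads were split between them is uncertain. MIR621 had -0.53 and did not pass. It lies 0.655 kb from SLC25A15 in the counted annotation and inside the span of SLC25A15, on the same strand, in GENCODE v44, so its reads cannot be told apart from those of a longer SLC25A15 transcript.

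Across the 19 gene lists used above, 231 genes that do not belong to the group were tested. Of these, 6 were lower and 13 higher in shIER5L cells, beside 1.46% lower and 2.46% higher among all genes tested. The 6 lower ones were TFF1, FSTL3, IGFBP6, S100A10, RBL1 and KRT7. The lists were drawn up with earlier results of these data known, so these counts are a description. The median log2 fold change of list genes outside the group was -0.31 for the secretory epithelium list and 0.23 for the markers of other cell types, and between -0.10 and 0.11 for the other 17 lists, beside 0.00 over all genes tested. Leaving out a single sample moved these counts: lower genes numbered 2 without shScramble replicate 3, 3 without shScramble replicate 4 and 3 without shIER5L replicate 3, and higher genes 6 without shScramble replicate 3 and 8 without shIER5L replicate 3. The sample label of shScramble replicate 3 ends differently from those of the other controls, and the sources used here do not explain it. Whether this bears on the counts was not tested.

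**Figure D5:**
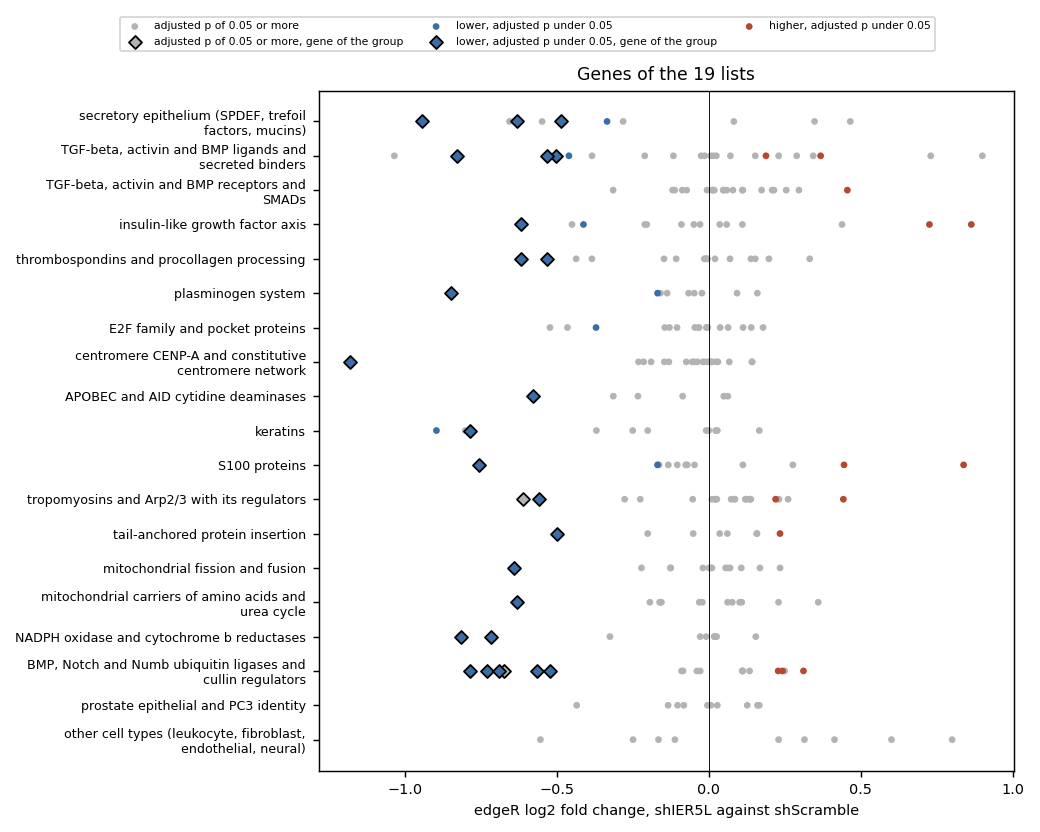
edgeR log2 fold change, shIER5L against shScramble (x axis), of each gene tested in the 19 lists (rows). Diamonds are genes of the selected group and circles the other list genes, with blue for lower and red for higher at an adjusted p under 0.05 and grey for neither. In most rows the diamonds stand apart to the left of the circles, by the choice of the genes, and the ubiquitin row holds 6 of them.

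The limits of the rule fell among genes of similar values. Just inside the abundance threshold were SH3PXD2A-AS1 at 2.08 CPM, CAND2 at 2.11 and ENSG00000272369 at 2.15, and just outside were LOXL3 at 1.96, CDC20P1 at 1.91 and GNG7 at 1.91. For the log2 ratio, TFF2 and UBE2QL1 were just inside at -0.5013 and -0.5033, and CCDC9B, CLN6 and LINC01560 outside at -0.4985, -0.4967 and -0.495. For separation, SH3GL2, ARPIN and LINC01089 had a lowest control 1.00, 1.04 and 1.06 times the highest shIER5L value, while RPSAP13, ZCCHC18 and E2F8 had 0.994, 0.987 and 0.977 times. The separation requirement alone set aside 27 genes.

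The genes outside the group whose profile was most like it, by Pearson correlation of log2 CPM with the mean z score of the 61 genes over 8 samples, were RCC2 (r = 0.995), JPT1 (0.994), KIAA0040 (0.991), KAT6A (0.990) and PKDCC (0.987). RCC2 and JPT1 are 2 of the genes set aside by name. KAT6A, a histone acetyltransferase, was at 65.9, 69.0, 68.7 and 69.6 CPM in shScramble samples and 53.9, 54.3, 50.2 and 52.0 CPM in shIER5L samples. KIAA0040 and PKDCC had log2 fold changes of -0.41 and -0.33, short of the fold threshold. The correlations rest on the difference between the 2 groups of 4 samples and are a description.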

How the data were processed

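RNA-seq counts of 8 PC3 samples (4 shIER5L, 4 shScramble) were used. The authors deposited raw counts per gene, aligned to hg38 with STAR 2.7.5c, with PCR duplicates removed by samtools 1.15 and primary alignments counted on exons with featureCounts 2.0.3. The counting command had no strand option and counted reads of a pair singly (65.3% to 66.1% of counts from 1 to 20 were even), so counts exceed fragments.

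CPM were counts over column sums. Symbols and 3′ UTRs came from GENCODE v44. Genes kept by filterByExpr (16959) were scaled by TMM and tested with edgeR 4.0.16 (glmQLFit, glmQLFTest, R 4.3.3), group as the only term, with Benjamini-Hochberg adjustment; SE is the log2 fold change over the root of F. The fit was tested on simulated counts. Alternatives were limma voom 3.58.1, DESeq2 1.42.0, other scalings and filters, a replicate block and each sample left out. Hairpin sequences came from the study's oligonucleotide table. The members, lists and heptamers were chosen with earlier results of these data known. Genes named with values in each sample were the 10 with the lowest log2 ratio, the 10 with the highest shScramble CPM and those in 1 of 19 lists. Of list genes outside the group, those passing the test were named, at most 5 a list. Values of 2 members, 1 site and 2 marker genes are not reported here.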

Additional observations from a re-analysis of the deposited data

Results flagged for a closer look

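In 8 of 122 groups of 4 values (61 genes in 2 conditions), the highest or lowest CPM lay further from the rest than Dixon's criterion allows. Chance gives about 1 in 20 such groups. Among shScramble samples, SNORD3B-1 was at 8.9 CPM in replicate 4 against 5.07 to 5.47 in the others, LINC01089 at 6.22 in replicate 2 against 4.56 to 4.83, TUFT1 at 51.3 in replicate 3 against 44.9 to 45.4, SLC35F5 at 166.0 in replicate 1 against 150.0 to 151, and UBE2QL1 at 16.1 in replicate 1 against 20.3 to 20.4. Among shIER5L samples, JOSD1 was at 67.7 CPM in replicate 2 against 71.4 to 71.8, IGFBP3 at 9.25 in replicate 3 against 7.14 to 7.32, and ENSG00000272369 at 1.94 in replicate 4 against 1.7 to 1.73.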

How the results depend on the processing

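The rule kept 115 genes at a mean of at least 1 CPM, 40 at 5 CPM, 137 at a log2 ratio of at most -0.4 and 32 at -0.6, and 64 to 97 with 1 sample left out. All 61 genes had a negative log2 fold change in each of 16 fits, which follows from how they were chosen. Their median stayed between -0.63 and -0.59 with 1 sample left out. Members passing the test numbered 35 to 47 with 1 sample left out, and 35 of the 48 passed in all 8 of those fits. SH3PXD2A-AS1 and RNVU1-25 passed in none of them. Over all genes, 248 were lower and 418 higher. DESeq2 gave 386 lower and no filter on low counts 402, and with 1 sample left out lower genes numbered 138 to 248 (162 without shScramble replicate 2, 138 without replicate 3, 154 without replicate 4) and higher genes 167 to 508 (179 without shScramble replicate 2, 167 without replicate 3, 187 without shIER5L replicate 3). List genes outside the group that were lower numbered 10 with DESeq2, 11 without a filter and 2 to 5 with 1 sample left out, and higher ones 6 to 17. Members with a 3′ UTR site numbered 17 for bases 11 to 17 alone and 11 for the octamer, 1 with sh1, and 12 in the coding sequence. The coding sequence and bases 11 to 17 alone were chosen after seeing the data. The cause of these differences was not tested.

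Same-numbered samples shared only a number (correlations of their deviations from the group means of -0.05, 0.10, -0.04 and 0.14). With the replicate number as a block, 240 genes were lower and 415 higher, and 47 members passed, 46 of them among the 48. Pairs were counted as separate reads, and 21 members had a mean under 5 CPM, where a single sample weighs most.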
